A study of Homo sapiens with 16 samples.

Results

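The genes described here belong to arginine and polyamine metabolism and were followed across a fibroblast model of tumour progression. They are ASS1, ASL, ARG2, OAT, ODC1, AZIN1, AMD1, SRM, SMS and SAT1, which are 10 of the 19356 protein-coding genes in the table. They were picked by name with earlier results of the same libraries known, and ASS1 in particular was singled out for the way its level moved with oxygen and stage. Their gene levels are therefore given as a description with no test, and for them only transcript shares were tested. Gene lists around them were tested by gene level, but were also chosen with earlier results known, so their tests are not independent evidence. Expression was measured by RNA sequencing in BJ cells, human foreskin fibroblasts, and is given as TPM, a transcript abundance scaled for transcript length and library total, so levels of different genes can be compared. The 16 libraries fall into 8 groups of 2, which are 4 stages at 2 oxygen levels, and the cells were kept for 6 passages at atmospheric or at 3% oxygen and sequenced as duplicate samples.

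The primary stage was unmodified BJ cells. The immortalized stage carried hTERT, the transformed stage hTERT and SV40, and the stage labelled metastasizing hTERT, SV40 and Ras-G12V, so that every later stage held the alleles of the stages before it. Each stage was a single line, so a difference between stages cannot be told apart from a difference between lines. The duplicates were parallel plates of each line at each oxygen level, so p-values measure the spread between plates of a line.

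The 8 fibroblast markers examined (COL1A1, COL1A2, COL3A1, VIM, THY1, PDGFRB, FAP and S100A4) exceeded 1 TPM in all 16 libraries, and the 3 endothelial markers measured stayed at or under 1 TPM in all of them. The fibroblast sum ranged widely, from 3852 to 18097 TPM. The summed haematopoietic, hepatocyte and melanocyte markers, 4 each, reached at most 3.725, 3.66 and 5.02 TPM. The summed level of 4 epithelial markers ranged from 10.2 to 68.3 TPM, almost all of it KRT8, and its part in the results was not tested. TERT, the catalytic subunit of telomerase, was at 0 TPM in both primary libraries at atmospheric oxygen, at 0.037 and 0.543 TPM in those at 3% oxygen, and at 31.6 TPM or more in every library of the later stages. The level of HRAS went partly against the last label: at atmospheric oxygen it was 94.6 and 78.1 TPM in the libraries labelled metastasizing, below the 119.8 and 98.955 TPM of the transformed ones, whereas at 3% oxygen it was 143 and 772 TPM against 49.4 and 61.8 TPM. Gene TPM do not separate the G12V allele from the normal one. The authors state that variant calls from their RNA reads bore out the mutations specific to each stage. The 2 libraries labelled metastasizing at 3% oxygen also stood apart from each other, with 10.99% of genes more than 2-fold apart, against 1.83% to 4.08% in the other 7 groups. Some counts of calls, the list medians and the differences of the 10 genes that these libraries moved most are given with and without each of them.

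Arginine is made from citrulline and aspartate by argininosuccinate synthase (ASS1) and argininosuccinate lyase (ASL), and many tumours silence ASS1 and then depend on arginine from outside. Arginase (ARG2) cleaves arginine to urea and ornithine, and ornithine is passed by OAT towards glutamate and proline or by ornithine decarboxylase (ODC1) to putrescine, the first polyamine. SRM and SMS then add aminopropyl groups, supplied by AMD1, to make spermidine and spermine, and SAT1 acetylates both so that they can be broken down or exported. Polyamines are needed for growth, and ODC1 and SRM are textbook targets of the transcription factor MYC, which binds the E-box.

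Promoter sequences are shown for the 3 genes with an E-box, CACGTG, which are ASS1, ODC1 and SRM. These also had the widest oxygen differences in the transformed stage, upward in ASS1 and downward in ODC1 and SRM. A link between the E-box and these differences was not tested. Windows of 300 bases around RefSeq transcription starts (GRCh38.p14, 250 bases before to 50 after) were at hand for 9 of the 10 genes, 13 windows in all; AZIN1 had none. The E-box was present in 3 of the 13 windows, 1 each of ASS1, ODC1 and SRM, and in 7.26% of 35116 windows of all genes. Capitals mark the E-box, and each sequence runs 5′ to 3′ on the strand of the gene. In ASS1 the E-box began 71 bases before the second of the 2 starts, and in SRM 199 bases before the start. ODC1 held 2 E-boxes around its second start, 29 bases before and 6 bases after it, each shown with its surrounding 30 bases.
ASS1, chr9:130444711-130444960, plus strand: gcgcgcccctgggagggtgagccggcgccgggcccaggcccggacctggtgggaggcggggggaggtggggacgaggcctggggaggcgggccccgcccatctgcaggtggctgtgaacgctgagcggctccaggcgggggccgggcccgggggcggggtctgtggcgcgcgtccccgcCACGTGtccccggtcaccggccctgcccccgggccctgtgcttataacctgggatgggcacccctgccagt
SRM, chr1:11060019-11060268, minus strand: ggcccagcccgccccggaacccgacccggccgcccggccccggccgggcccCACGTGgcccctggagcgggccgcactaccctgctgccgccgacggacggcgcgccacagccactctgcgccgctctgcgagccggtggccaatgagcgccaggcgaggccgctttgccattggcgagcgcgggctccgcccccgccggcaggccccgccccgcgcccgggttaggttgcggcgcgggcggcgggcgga
ODC1, chr2:10448024-10448053, minus strand: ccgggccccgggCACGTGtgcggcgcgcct
ODC1, chr2:10447990-10448019, minus strand: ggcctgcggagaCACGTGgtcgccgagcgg

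Both strands were searched. The core of the site bound by the hypoxia-inducible factors, ACGTG or GCGTG, overlaps every E-box and was found in 9 of the 13 windows, against 48.4% of all windows. The amino acid response element TGATGNAA, bound by ATF4 with a partner, was in 0 of the 13 windows and in 3.62% of all windows, and the GC box GGGCGG was in 12 of the 13 and 45.0% of all. Some windows of ASS1 and of AMD1 overlap, so the 13 are not separate promoters, and sites of AMD1 are counted more than once. By gene, the hypoxia-inducible factor core was found in 7 of the 9 genes with a window and the GC box in 8. A match is a description of letters and says nothing of binding in these cells.

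ASS1 (ENSG00000130707, GRCh37 chr9:133320348-133376661) had the widest range of the 10 genes, and its oxygen difference turned over between the immortalized and transformed stages. At atmospheric oxygen it was 183 and 127 TPM in primary cells and 39.0 and 35.6 TPM at 3%. In immortalized cells it was 695 and 662 TPM at atmospheric oxygen and 228 and 211 TPM at 3%. Both early stages thus held less ASS1 at 3% oxygen, with no overlap between libraries. Transformed cells were the other way round, with 24.9 and 24.1 TPM at atmospheric oxygen and 219 and 213 TPM at 3%. The libraries labelled metastasizing had 87.2 and 68.8 TPM at atmospheric oxygen and 268 and 119 TPM at 3%. A lack of overlap between libraries was common. It held for 67.7%, 72.8%, 72.5% and 58.7% of all genes tested for oxygen, in the order of the stages.

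On the log2(TPM + 0.5) scale the difference of 3% minus atmospheric oxygen in ASS1 was -2.02 (SD of replicates 0.27) in primary, -1.62 (SD 0.065) in immortalized, 3.11 (SD 0.030) in transformed and 1.20 (SD 0.61) in the libraries labelled metastasizing, n = 2 against 2 in each. The last value ran from 0.62 without 3% library a to 1.78 without 3% library b. Ordered by mean, the 8 groups were transformed atmospheric (24.5 ± 0.54 TPM, SD, n = 2), primary 3% (37.3 ± 2.4), metastasizing atmospheric (78.0 ± 13), primary atmospheric (155 ± 39.5), metastasizing 3% (193 ± 105), transformed 3% (216 ± 4.3), immortalized 3% (219.8 ± 11.8) and immortalized atmospheric (679 ± 22.9). Neighbours from primary atmospheric up to immortalized 3% overlapped in their libraries, and the others did not. The highest group mean was 27.7-fold the lowest.

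**Figure D1:**
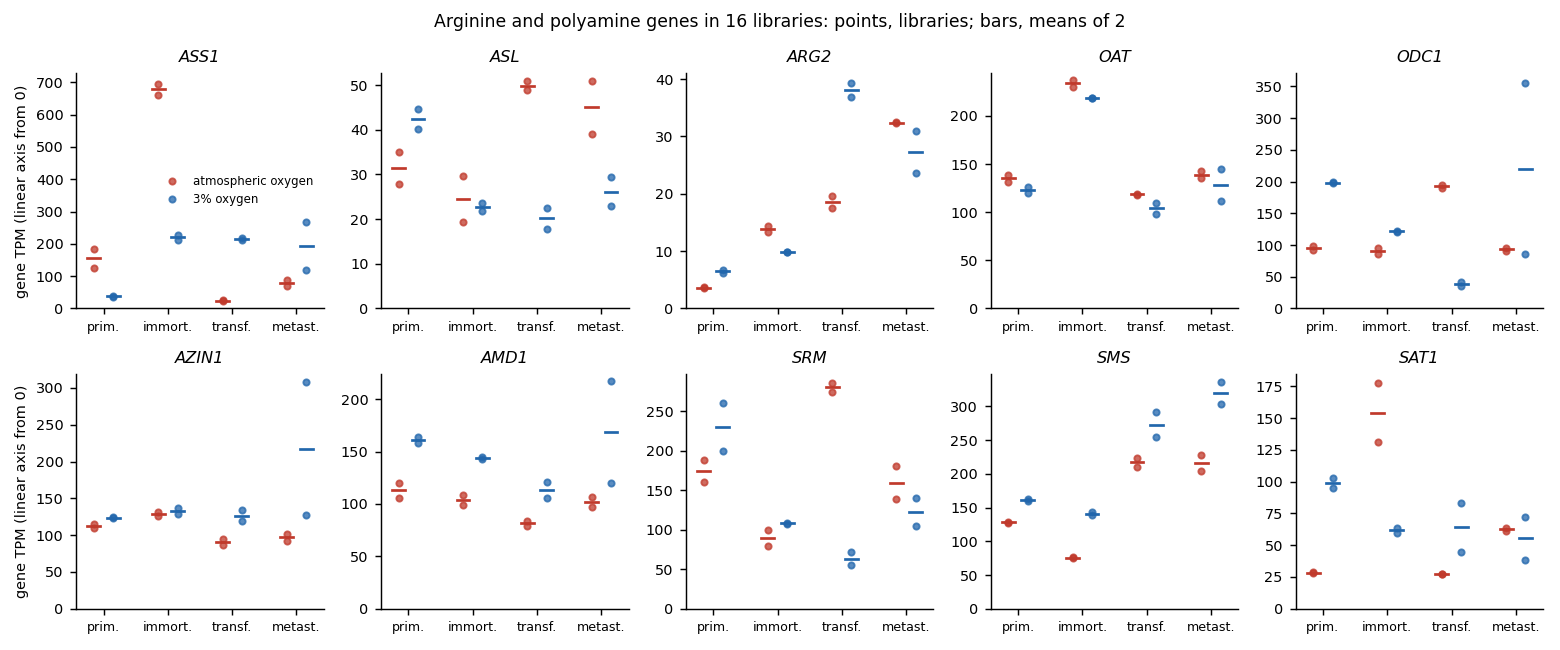
Level of each of the 10 genes in TPM (linear axes that start at 0) by stage, with red points for libraries at atmospheric oxygen, blue points for 3% oxygen and bars for the mean of 2 libraries. ASS1 is highest in immortalized cells at atmospheric oxygen (679 TPM), while ODC1 and SRM are lowest in transformed cells at 3% oxygen (38.9 and 63.4 TPM).

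ASL (ENSG00000126522, chr7:65540787-65559684), the next enzyme, ran against ASS1 in the transformed stage. It was 50.8 and 48.9 TPM in transformed cells at atmospheric oxygen and 22.6 and 17.7 TPM at 3%, a log2 difference of -1.30 (SD 0.17). In the libraries labelled metastasizing it was 51.0 and 39.0 TPM against 22.9 and 29.4 TPM (-0.77, SD 0.26), again with no overlap, like 58.7% of all genes there. Primary cells had 27.8 and 35.1 TPM at atmospheric and 44.7 and 40.3 TPM at 3% oxygen, and immortalized cells overlapped with 19.4 and 29.7 against 23.6 and 21.7 TPM. Over the 16 libraries, Pearson's r of ASL with ASS1 on the log2 scale was -0.82 and Spearman's rho -0.79, a description over points that share lines and oxygen levels.

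Of the enzymes that use arginine and ornithine, ARG2 (chr14:68086637-68118425), the mitochondrial arginase, had the lowest median over the 16 libraries of the 10 genes (15.9 TPM) and at atmospheric oxygen was higher at each stage than at the one before. It was 3.55 and 3.76 TPM in primary cells at atmospheric oxygen against 6.12 and 6.78 TPM at 3%. Immortalized cells had 14.4 and 13.3 TPM against 9.86 and 9.91 TPM, the opposite direction. Transformed cells had 19.6 and 17.4 TPM against 36.9 and 39.2 TPM, the largest oxygen difference of ARG2 (1.02 on the log2 scale, SD 0.094). The libraries labelled metastasizing had 32.3 and 32.5 TPM against 30.9 and 23.6 TPM. The direction of ARG2 thus alternated over all 4 stages without overlap between libraries, while 58.7% to 72.8% of all genes had no overlap in a single stage. OAT (chr10:126085872-126107545), which turns ornithine towards proline and glutamate, moved least with oxygen, by -0.10 to -0.19 on the log2 scale, and ranged from 98.5 to 237 TPM over all libraries with its highest group in immortalized cells at atmospheric oxygen (234 ± 4.9 TPM, n = 2).

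ODC1 (chr2:10580094-10588453), which commits ornithine to polyamines, was higher at 3% oxygen in the early stages and lower in the transformed one. It was 92.1 and 98.9 TPM in primary cells at atmospheric oxygen and 198 and 199 TPM at 3%. In immortalized cells it was 85.1 and 96.0 TPM and then 121 and 123 TPM. Transformed cells reversed the order, at 194 and 190.4 TPM against 41.9 and 35.9 TPM, 4.94-fold lower at 3% oxygen. Libraries labelled metastasizing had 90.9 and 95.2 TPM at atmospheric oxygen, and at 3% oxygen 355 TPM in library a and 85.1 TPM in library b, above and below the atmospheric pair. The log2 difference there was 0.90 (SD 1.0), from -0.13 without library a to 1.93 without library b, so its direction rested on a single library. The log2 differences of the other stages were 1.05 (SD 0.051), 0.43 (SD 0.087) and -2.29 (SD 0.11).

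AZIN1, the antizyme inhibitor that keeps ODC1 from degradation, was 86.9 to 136 TPM in 15 libraries and 309 TPM in the same metastasizing 3% library a, against 127 TPM in library b. Its oxygen difference was 0.14, 0.03, 0.47 and 1.02 on the log2 scale in the order of the stages, and the last ran from 0.38 without library a to 1.66 without library b. AMD1 (chr6:111195973-111220082), which makes the aminopropyl donor, was higher at 3% oxygen in every stage without overlap, as were 21.7% to 44.9% of all genes in a single stage. It was 106 and 120.1 against 158 and 164 TPM in primary, 108 and 98.7 against 145 and 143 TPM in immortalized, and 84.1 and 79.1 against 106 and 121 TPM in transformed cells. In the libraries labelled metastasizing it was 97.1 and 106 against 217 and 119.9 TPM. The 3 differences of AMD1 in the first stages lay between 0.47 and 0.51 on the log2 scale, and the last was 0.67, from 0.24 to 1.10 with a library left out.

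The 2 aminopropyl transferases parted. SRM (chr1:11114641-11120077), spermidine synthase, had the oxygen direction of ODC1 in the stages before the last. It was 161 and 188 against 260.4 and 199.6 TPM in primary cells and 78.8 and 100.2 against 109 and 107 TPM in immortalized cells. In transformed cells SRM was 286 and 274 TPM at atmospheric oxygen and 71.2 and 55.7 TPM at 3%, 4.42-fold lower (-2.15 on the log2 scale, SD 0.18). The libraries labelled metastasizing overlapped, with 180.2 and 138 against 139.7 and 104 TPM. SMS (chrX:21958827-22012955), spermine synthase, was higher at 3% oxygen in all 4 stages, with log2 differences of 0.33, 0.89, 0.32 and 0.57. Its libraries did not overlap in any stage, where 40.8%, 44.9%, 37.3% and 21.7% of all genes were higher without overlap. Its lowest group was immortalized atmospheric (75.5 ± 0.90 TPM) and its highest metastasizing 3% (319.7 ± 22.2 TPM, n = 2 each). SRM and ASS1 had Pearson's r of -0.80 and Spearman's rho of -0.79 over the 16 libraries, as a description.

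SAT1 (chrX:23801290-23804327), the polyamine acetyltransferase, had an oxygen difference that went up, down and up again over the first 3 stages. Primary cells had 28.4 and 28.6 TPM at atmospheric oxygen and 95.2 and 103 TPM at 3%, a log2 difference of 1.78 (SD 0.057). Immortalized cells had 178 and 131 TPM against 59.6 and 63.7 TPM (-1.30, SD 0.22), and transformed cells 27.6 and 27.7 TPM against 44.7 and 83.6 TPM (1.13, SD 0.45). In the libraries labelled metastasizing, 61.4 and 63.5 TPM lay between the 3% libraries of 38.4 and 72.5 TPM. The log2 difference there was -0.24 (SD 0.45), from -0.69 without 3% library b to 0.21 without 3% library a. SAT1 and ASS1 were both highest in immortalized cells at atmospheric oxygen and both lowest in transformed cells at atmospheric oxygen, while in primary cells their oxygen differences were opposite.

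**Figure D2:**
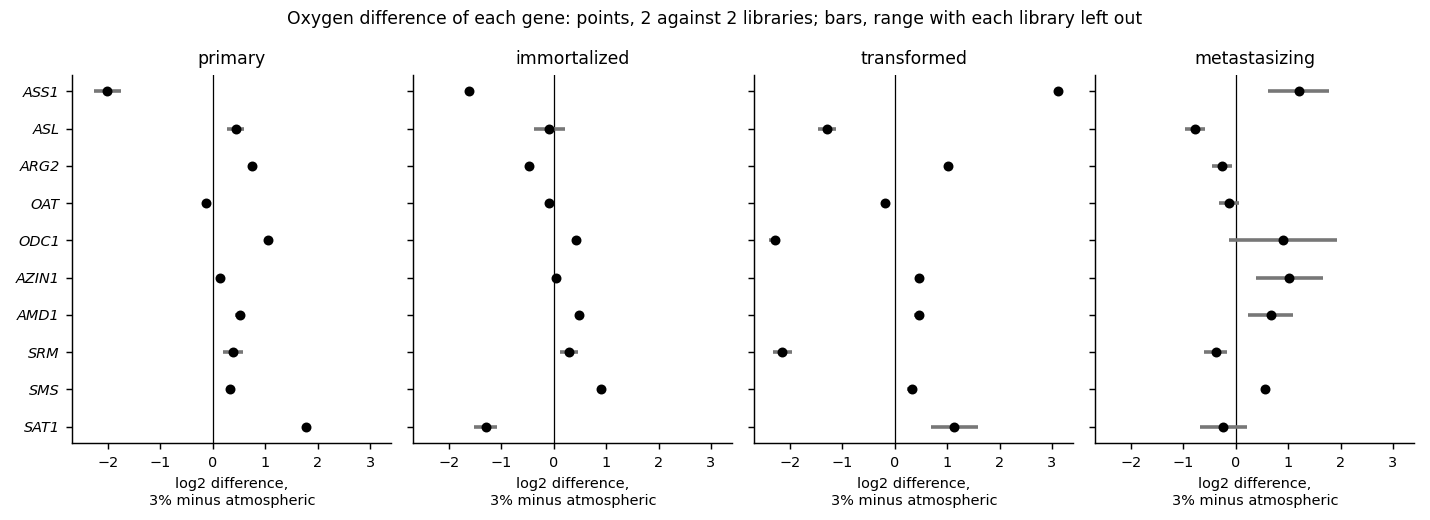
Log2(TPM + 0.5) at 3% minus atmospheric oxygen (x axis) for each gene (y axis) and stage, with points for 2 against 2 libraries and grey bars for the range when each library is left out in turn. ASS1 goes from -2.02 and -1.62 to 3.11 and 1.20, and the widest bar is that of ODC1 in the metastasizing stage (-0.13 to 1.93).

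A call here means a Benjamini-Hochberg adjusted p under 0.01 in limma, a log2 fold change beyond 1 with 1 TPM or more on average in either group. For the 10 genes, which were chosen on these levels, the counts past that rule are a description. In primary cells 2 of 10 passed (ASS1 lower, SAT1 higher at 3% oxygen) against 5.3% of 12184 genes tested, and in immortalized cells 2 (ASS1 and SAT1, both lower) against 4.91% of 12049. Transformed cells had 5 (ASS1 and ARG2 higher, ASL, ODC1 and SRM lower) against 7.48% of 12242, and the libraries labelled metastasizing 0 against 7.66% of 12288. Without metastasizing 3% library b, 4 passed there (ODC1, AZIN1, AMD1 and ASS1), and without library a 0. In primary cells 0 passed without atmospheric library a, 1 without any other of the 4 and 3 without either metastasizing 3% library. In immortalized cells 0 passed without any single one of the 4 libraries and 1 without any of 8 libraries of other groups. In transformed cells 2, 3 and 2 passed without 3% library b, atmospheric library a and atmospheric library b. The median log2 difference of the 10 genes was 0.41, -0.02, 0.40 and 0.22 in the order of the stages, beside 0.08, 0.11, 0.01 and -0.13 for all genes tested. Median-ratio rescaling moved the median of all genes to -0.04, -0.03, 0.03 and -0.01, and against it ASS1 was -2.14, -1.77, 3.12 and 1.32. Over all genes the calls split into 339 higher and 307 lower in primary cells (254 and 395 after rescaling), 257 and 335 in immortalized cells (168 and 469), and 376 and 565 in the libraries labelled metastasizing (455 and 447). Among the 10 genes rescaling turned 1 sign, that of AZIN1 in immortalized cells, whose difference went from 0.03 to -0.11.

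Between stages at atmospheric oxygen, 3 of the 10 genes passed the rule from primary to immortalized (ARG2, SAT1 and ASS1, all higher) against 12.2% of all genes. From immortalized to transformed 5 passed (SMS, SRM and ASL higher, SAT1 and ASS1 lower) against 24.3%, and ASS1 fell by 4.76 on the log2 scale. From transformed to metastasizing 1 passed (ASS1, higher by 1.64) against 4.12%. At 3% oxygen the counts were 2 (ASS1 higher by 2.54, SRM lower by 1.07) against 9.23%, 2 (ARG2 higher, OAT lower) against 16.3%, and 1 (ODC1, higher by 2.15) against 5.92%. That ODC1 difference (SD 1.03) ran from 1.12 to 3.18 with a library left out. At the last step at 3% oxygen 0 passed without transformed 3% library b or atmospheric library a, and 3 without metastasizing 3% library b. At the last step at atmospheric oxygen 0 passed without any single library of the 2 groups compared, 2 without either transformed 3% library and 3 without either metastasizing 3% library. ASS1 in transformed and immortalized cells at 3% oxygen overlapped, with a log2 difference of -0.03.

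SAT1 stood out among the 10 genes for transcripts that are not annotated as coding. Protein-coding transcripts held 34.96% to 66.5% of SAT1 TPM and 80.0% to 98.0% of ASL TPM, and 89.5% or more of the other 8. SAT1-208, annotated as a substrate of nonsense-mediated decay, ranged from 5.30% of SAT1 in a primary atmospheric library to 33.6% in metastasizing 3% library a, where library b had 9.75%. In transformed cells it was 20.6% and 15.9% at atmospheric oxygen and 17.5% and 19.8% at 3%. A form of SAT1 with an extra exon that leads to decay is known as background, and whether SAT1-208 is that form was not examined.

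The share of each transcript in its gene was not used in choosing the genes, and it was tested between oxygen levels for 22 transcripts of 8 of the 10 genes in each stage (limma on log2 ratios). None was called in any stage, against 0.304%, 0%, 0.0299% and 0% of 26360 to 26747 shares tested over all genes in the order of the stages. Unadjusted p under 0.05 was reached by 4, 3, 2 and 1 of the 22, and the same share over all genes is not given here. Transcripts of a gene share its total. AZIN1 in primary cells and SMS in immortalized cells each gave 2 of these counts. The lowest adjusted p was 0.0855 for the AMD1 transcript ENST00000368877 in primary cells, with a log2 change of 1.95 (SE 0.49). In 2 against 2 libraries an exact permutation test cannot go below 0.333, so the test leans on the spread shared by all groups.

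**Figure D3:**
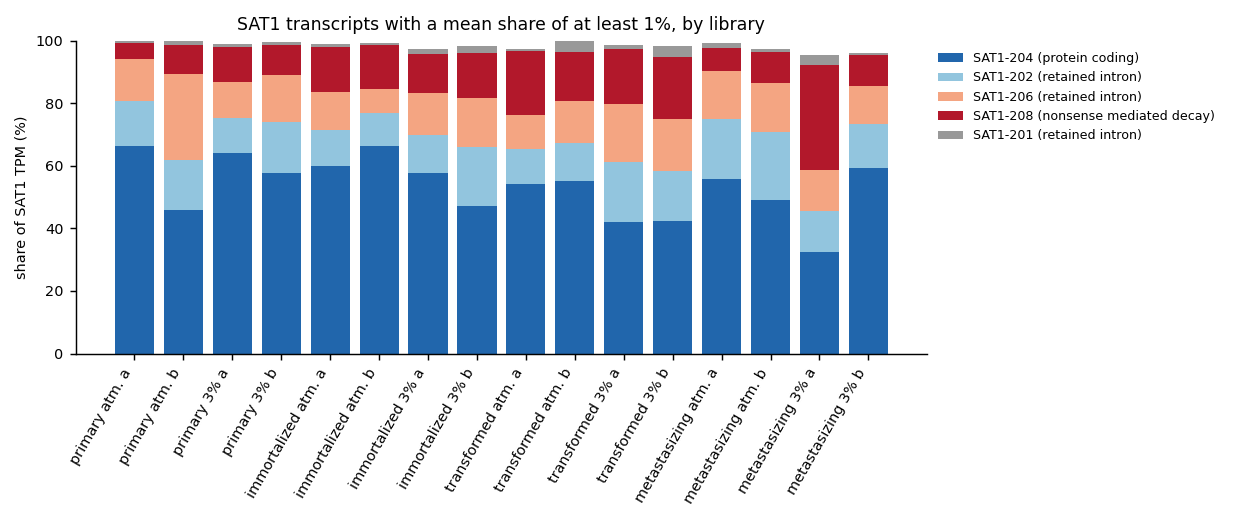
Share of SAT1 TPM (y axis, percent, from 0 to 100) held by each transcript of at least 1% mean share in each of the 16 libraries. The coding transcript SAT1-204 runs from 32.4% to 66.5%, and the decay substrate SAT1-208 is highest, at 33.6%, in metastasizing 3% library a.

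Pseudogenes of ASS1 can share reads with it. The 14 annotated copies together held 0.16% to 5.50% of the sum of ASS1 and its copies, and adding them lowered the transformed difference of ASS1 to 3.04. For AMD1 4 copies held 0.27% to 1.36%.

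Around the 10 genes, 47 others in 6 lists cover the urea cycle and other users of arginine, arginine transport, the exchange of ornithine with proline and glutamate, antizymes and polyamine oxidation and transport, the methionine salvage route, and the hypusine modification of eIF5A, which uses spermidine. Of these, 38 or 39 were tested per oxygen comparison. In primary cells 0 of 38 were called by limma, against 5.3% of all genes (17 at an unadjusted p under 0.05, against 39.0% of all genes), and 1 without 3% library a or atmospheric library b. In immortalized cells 0 of 38 rose and 2 fell at 3% oxygen, against 4.91% of all genes called. In transformed cells 1 of 38 rose and 2 fell (7.48% of all genes called), and in the libraries labelled metastasizing 0 of 39 rose and 1 fell (7.66%). The medians over all 6 lists were 0.09, 0.04, 0.05 and -0.10, beside 0.08, 0.11, 0.01 and -0.13 for all genes tested. The last was -0.19 without metastasizing 3% library a and -0.02 without library b.

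The 2 that fell in immortalized cells were SLC7A7, an exporter of cationic amino acids, and SMOX, spermine oxidase. SLC7A7 was 15.5 and 11.4 TPM at atmospheric oxygen and 2.96 and 4.13 TPM at 3% (log2 fold change -1.78, SE 0.29, adjusted p 0.0015 in limma). SMOX was 24.7 and 21.5 TPM against 8.995 and 8.18 TPM (-1.38, SE 0.28, adjusted p 0.0051). Both were called among genes of which 2.78% fell in that comparison, and neither pair of groups overlapped, like 72.8% of all genes there. The oxygen effect on SLC7A7 differed between transformed and immortalized cells by 2.75 (SE 0.41, adjusted p 0.00069) and that on SMOX by 1.76 (SE 0.40, adjusted p 0.0068, and 0.0032 to 0.012 over the alternatives). Without immortalized 3% library a or atmospheric library a, 0 of the 2 were called in immortalized cells, and without either library b 1 was.

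In transformed cells EIF5A, the translation factor that carries hypusine, was 1369.6 and 1309 TPM at atmospheric oxygen and 654 and 678 TPM at 3% (-1.01, SE 0.074, adjusted p 1.2e-05 in limma). Its call rested on the fold limit, since rescaling gave -0.99. PYCR3, a late enzyme of proline synthesis, was 11.9 and 7.81 against 1.94 and 2.18 TPM (-1.99, SE 0.44, adjusted p 0.0056). ATP13A3, a polyamine importer, rose from 53.0 and 41.8 to 109 and 94.8 TPM (1.11, SE 0.26, adjusted p 0.0077, and 0.0051 to 0.082 over the alternatives). Of all genes tested there, 4.9% rose and 2.58% fell. In the libraries labelled metastasizing SLC18B1, a vesicular polyamine transporter, fell from 14.2 and 15.7 to 6.04 and 7.02 TPM (-1.14, SE 0.20, adjusted p 0.0021), against 4.6% of genes that fell. A fit of only the groups compared called 0 of the wider genes in that stage, so the call of SLC18B1 was lost there. Without transformed 3% library a or transformed atmospheric library a, 0 of the 3 genes were called in transformed cells, and without metastasizing atmospheric library b 0 were called in the last stage, against 3 without metastasizing 3% library b.

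Over the 6 steps between neighbouring stages the wider lists had 5, 8 and 1 calls at atmospheric oxygen and 4, 6 and 2 at 3% oxygen, of 38 or 39 tested. Of all genes 12.2%, 24.3% and 4.12% were called in the same steps at atmospheric oxygen and 9.23%, 16.3% and 5.92% at 3% oxygen. Leaving out 1 library of the groups compared took the count of 5 to 3 (either immortalized library or primary library b), that of 8 to 5 (immortalized library a or either transformed library), that of 4 to between 1 and 2 (any of the 4) and that of 2 to 1 (metastasizing or transformed library b). SLC7A2, an arginine importer named here after its values were seen, was the extreme of these. Its mean went from primary to immortalized cells from 0.282 to 17.0 TPM at atmospheric oxygen and from 0.99 to 16.1 TPM at 3%. In transformed cells it was 1.49 TPM at atmospheric oxygen and 1.42 TPM at 3%. For the difference of the oxygen effect between neighbouring stages, 1 of 39 wider genes was called from primary to immortalized against 1.86% of all genes, 4 from immortalized to transformed against 12%, and 2 from transformed to metastasizing against 8.47%.

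A further pair of lists was looked at because their factors can act on amino acid and polyamine genes: 18 genes of the amino acid response led by ATF4, and 11 of the MYC network. The amino acid response list fell or did not pass in the early stages and rose in the transformed one. At 3% oxygen 0 rose and 2 fell in primary cells (median of the list -0.78, against 2.52% of genes that fell), and 0 rose and 2 fell in immortalized cells (median -0.45, where 2.13% of genes rose and 2.78% fell). In transformed cells 13 of 18 rose and 0 fell (median 1.55), all 18 lay above 0, and 4.9% of all genes rose. In the libraries labelled metastasizing 0 of 18 were called by limma (median 0.46, or 0.06 without 3% library a and 0.34 without library b), where 3.06% of all genes rose. The count of 13 was 5, 5 and 3 without transformed 3% library a, atmospheric library a and atmospheric library b. It ranged from 9 to 14 over the other alternatives. The primary count was 1 without atmospheric library a, 5 without either metastasizing 3% library and 0 in a fit of only the groups compared, and the immortalized count was 4 without either metastasizing 3% library. In the libraries labelled metastasizing it was 2 without 3% library a and 4 without 3% library b.

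TRIB3, a pseudokinase induced by ATF4, had the pattern of direction that ASS1 had. It was not alone in this, since the means of PSAT1, PHGDH, SHMT2, CEBPB and ASNS ran in the same directions. In the last stage 10 of the 18 genes lay above 0 and 8 below, ATF4, CHAC1 and SESN2 among the latter. Pearson's r of TRIB3 with ASS1 over the 16 libraries was 0.59, rank 672 among 13132 genes. Over the list r ran from 0.73 (SLC7A11) to -0.18 (SLC7A5), and a link to ASS1 was not tested. TRIB3 was 21.4 and 21.0 TPM against 7.52 and 5.45 TPM in primary cells (log2 fold change -1.65, adjusted p 8.6e-05), and 39.1 and 45.0 against 16.7 and 15.5 TPM in immortalized cells (-1.36, adjusted p 0.00030). In transformed cells it was 17.2 and 16.6 against 79.8 and 83.7 TPM (2.24, adjusted p 1.2e-05). The difference of its oxygen effect between the transformed and immortalized stages was 3.60 (SE 0.23, adjusted p 6.9e-06 in limma). DDIT3, the stress factor CHOP, fell in primary cells (-1.40, SE 0.21, adjusted p 0.00096) and rose in transformed cells (1.21, SE 0.21, adjusted p 0.0015), and SESN2, a leucine sensor, fell in immortalized cells (-1.47, SE 0.15, adjusted p 0.00013). The largest rises in transformed cells were DDIT4, an inhibitor of mTORC1 (2.86, SE 0.46, adjusted p 0.0010), CHAC1, which degrades glutathione (2.78, SE 0.67, adjusted p 0.0085, and 0.0063 to 0.017 over the alternatives, so that some end the call), and VLDLR, a lipoprotein receptor (2.68, SE 0.20, adjusted p 1.2e-05). CHAC1 was only 0.71 and 1.56 TPM in transformed cells at atmospheric oxygen, near the 0.5 TPM added before taking logs. ATF4 itself was 320.3 and 320.7 TPM against 671 and 564 TPM there (0.94, SE 0.13, adjusted p 0.00044), under the fold limit, and -0.79 in immortalized cells (SE 0.13, adjusted p 0.0016).

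**Figure D4:**
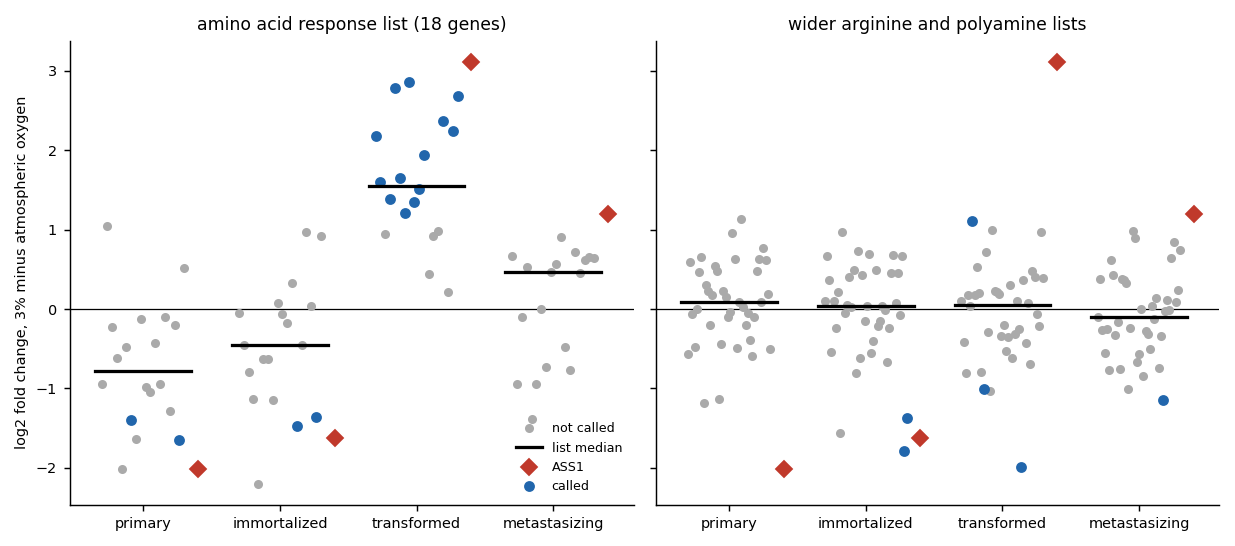
Log2 fold change, 3% minus atmospheric oxygen (y axis), of each tested gene of the amino acid response list (left) and of the wider arginine and polyamine lists (right) by stage, with called genes in blue, others in grey, the list median as a black bar and ASS1 as a red diamond. The amino acid response medians run -0.78, -0.45, 1.55 and 0.46, while those of the wider lists stay between -0.10 and 0.09.

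Of the MYC network, 9 or 10 genes were tested per stage, and 0, 0, 1 and 0 were called for oxygen in the order of the stages, against 5.3%, 4.91%, 7.48% and 7.66% of all genes. MXI1, an antagonist of MYC, rose in transformed cells from 3.87 and 7.14 to 53.5 and 44.4 TPM (3.09, SE 0.22, adjusted p 1.0e-05 in limma). MYC was 73.9 and 72.4 TPM against 80.5 and 63.0 TPM in the same cells (-0.04, SE 0.16). Whether MYC or MXI1 has a part in the levels of ODC1 and SRM was not tested. In immortalized cells MYC was 20.1 and 25.4 against 46.4 and 44.1 TPM (0.99, SE 0.16, adjusted p 0.0017), just under the fold limit. From immortalized to transformed cells at atmospheric oxygen MYC rose by 1.67 (SE 0.16). The median of the network was 0.06, -0.29, 0.05 and -0.04 in the order of the stages, and the last was -0.07 and -0.26 without metastasizing 3% libraries a and b.

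The 5 genes whose levels most resembled those of ASS1 among 13132 genes, by Pearson's r on log2(TPM + 0.5) over 16 libraries, were MME (0.95), LACC1 (0.91), FCMR (0.90), CD302 (0.90) and TPCN1 (0.89), with Spearman's rho of 0.94, 0.89, 0.90, 0.81 and 0.92. The median r of all genes was -0.14. MME, the surface peptidase neprilysin, was 1115 and 973 TPM in immortalized cells at atmospheric oxygen and 497 and 454 TPM at 3%, and 85.2 and 93.9 against 504 and 450.3 TPM in transformed cells. Like ASS1 it was highest in the first of these groups and lowest in transformed cells at atmospheric oxygen. The libraries share lines and oxygen levels, so these correlations carry no test.

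**Figure D5:**
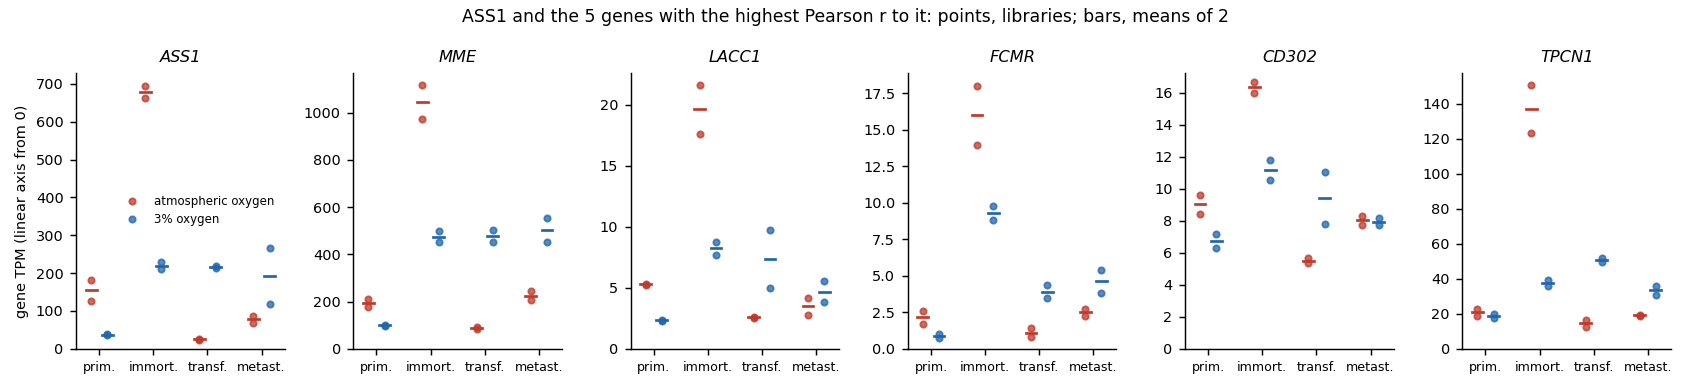
Level in TPM (linear axes that start at 0) of ASS1 and of the 5 genes with the highest Pearson r to it, by stage, with red points for atmospheric oxygen, blue points for 3% oxygen and bars for the mean of 2 libraries. All 6 are highest in immortalized cells at atmospheric oxygen, where ASS1 averages 679 and MME 1044 TPM.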

How the data were processed

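RNA of 16 libraries (2 in each of 8 groups) was made into stranded mRNA libraries and sequenced by the authors, who quantified transcripts with kallisto 0.42.1 against GRCh37, per the labels and the methods. The deposited values are TPM for 180253 transcripts, as the authors' quantification gave them. TPM hold no read counts, so depth and counting error are unknown here; a count test could not be used. Transcripts were matched by identifier to GENCODE 44 lifted to GRCh37 (151453 matched, 88.2% to 90.1% of TPM) and summed by gene. The annotation release of the authors is not given in the sources used here.

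Log2(TPM + 0.5) was fitted with limma 3.58.1 in R 4.3.3, with a coefficient for each of the 8 groups and the prior variance trended on mean level, leaving 8 residual degrees of freedom. Tables were made with Python 3.11.15, pandas 2.3.3 and numpy 2.4.6, and figures with matplotlib 3.10.9. Adjustment covered all protein-coding genes tested. Transcript shares were tested where the gene averaged at least 5 TPM and the share 5% to 95%. Gene-level calls were tried on simulated data for the oxygen comparison of primary cells only, with equal spread in all groups. Transcript shares and the wider spread of the metastasizing 3% libraries were not simulated. Outside the 10 genes, those named were up to 3 called genes with the largest oxygen effect per list and stage, the 5 most like ASS1, ATF4, MYC and 1 chosen afterwards (SLC7A2). The 10 genes and the lists were chosen with earlier results of these data known. Alternatives were other pseudocounts, filters, scaling, a replicate block, the compared groups alone, an adjusted p under 0.05, coding transcripts alone, pseudogenes added and each library left out.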

Additional observations from a re-analysis of the deposited data

Results flagged for a closer look

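Oxygen differences that ran in opposite directions in neighbouring stages, with no overlap between libraries in either, were found in 8 of 30 comparisons of the 10 genes: 2 of 10 between primary and immortalized, 5 of 10 between immortalized and transformed, and 1 of 10 between transformed and metastasizing. Over all genes the same was seen in 11.2%, 27.6% and 16.5%. The change in the log2 difference was 4.74 for ASS1, -2.72 for ODC1, -2.43 for SRM, 1.49 for ARG2 and 2.43 for SAT1 from immortalized to transformed cells. It was -1.21 for ARG2 and -3.08 for SAT1 from primary to immortalized cells, and -1.28 for ARG2 from transformed cells to the libraries labelled metastasizing. These 8 differences were not tested, since the genes were chosen with their levels known.

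For some named genes of the lists, the oxygen effect itself differed between neighbouring stages in limma (adjusted p under 0.01). These genes were named for large oxygen effects in the same libraries, so this is not independent support. Of all genes, 12% were called from immortalized to transformed cells and 8.47% in the last pair of stages. From immortalized to transformed cells the oxygen effect differed by 4.98 for CHAC1, 1.84 for DDIT3, 4.00 for DDIT4, -1.40 for EIF5A, 3.38 for MXI1, 2.39 for SESN2, 2.75 for SLC7A7, 1.76 for SMOX, 3.60 for TRIB3 and 1.76 for VLDLR. From transformed cells to the libraries labelled metastasizing it differed by -4.16 for CHAC1, -3.59 for DDIT4, 1.38 for EIF5A, -3.02 for MXI1, -1.69 for SESN2, -1.59 for TRIB3 and -2.03 for VLDLR. With a library left out these 7 ran over -4.65 to -3.67, -4.60 to -2.58, 1.34 to 1.43, -3.42 to -2.62, -1.85 to -1.53, -1.78 to -1.39 and -2.31 to -1.76 in that order. Both sets use the transformed libraries, with opposite sign. The large values of CHAC1 involve low levels. It was 0.71 and 1.56 TPM in transformed cells at atmospheric oxygen and 0.57 and 1.31 TPM in metastasizing 3% libraries.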

How the results depend on the processing

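The 4 oxygen differences of ASS1 kept their direction in every alternative run, while AZIN1 in immortalized cells turned sign with rescaling. With a library left out the sign turned for AZIN1 and ASL in immortalized cells and for ODC1, SAT1 and OAT in the libraries labelled metastasizing. For the wider lists, an adjusted p under 0.05 gave 1 call for oxygen in primary cells (0 as reported), no filter gave 1 in transformed cells (3), and for the libraries labelled metastasizing (1) rescaling, an adjusted p under 0.05 and coding transcripts alone each gave 2 and the fit of only the groups compared 0. Between stages they gave 3 from primary to immortalized at atmospheric oxygen with only the groups compared (5), and 5 from immortalized to transformed with rescaling (8). At 3% oxygen they gave 2 from primary to immortalized with only the groups compared or coding transcripts alone (4), and from transformed to metastasizing (2) 1 with a filter of 5 TPM or rescaling and 0 with only the groups compared. For the 10 genes, 1 passed in immortalized cells with no filter or coding transcripts alone (2), and in the libraries labelled metastasizing (0) 1 with the replicate block, ASS1, and 2 with an adjusted p under 0.05. From transformed to metastasizing 3 passed with only the groups compared and 2 with an adjusted p under 0.05 at atmospheric oxygen (1), and 0 with no filter or only the groups compared at 3% oxygen (1). ASS1 moved to -1.765 in immortalized cells with rescaling and to 3.045 in transformed cells with pseudogenes added. With each library left out in turn, the wider lists ranged over 0 to 1, 0 to 2, 0 to 3 and 0 to 3 calls for oxygen in the order of the stages, 3 to 5 and 5 to 8 for the first steps at atmospheric oxygen, and 1 to 5 and 1 to 2 for the first and last steps at 3% oxygen. The 10 genes ranged over 0 to 3, 0 to 2, 2 to 6 and 0 to 4 for oxygen, 0 to 3 for the last step at atmospheric oxygen, and 1 to 2 and 0 to 3 for the first and last steps at 3% oxygen. Of the named list genes, 22 of 281 alternatives and 75 of 496 left-out fits ended a call. The fit of only the groups compared called 164 of all genes in primary cells (646 as reported), 570 in transformed cells (916), 112 in the libraries labelled metastasizing (941) and 0 from transformed to metastasizing at 3% oxygen (727, with 2408 at an unadjusted p under 0.05). It called 377 and 123 for the first and last differences of the oxygen effect (235 and 1066). Rescaling turned the split of calls from immortalized to transformed cells at atmospheric oxygen from 1632 higher and 1384 lower to 1066 and 1776, and those of the last 2 differences of the oxygen effect from 779 and 743 to 980 and 475 and from 358 and 708 to 458 and 580. The cause of these changes was not tested. Samples with the same letter were not shown to be paired: correlations of their deviations ran from -0.16 to 0.23 over 10 comparisons. The replicate block gave 601 calls for oxygen in primary cells and 2977 from immortalized to transformed at atmospheric oxygen (3016), took the wider count from primary to immortalized at 3% oxygen from 4 to 3 and that of the first difference of the oxygen effect from 1 to 0, took the amino acid response count in transformed cells from 13 to 11, and ended the calls of CHAC1 in transformed cells and, for the difference of the oxygen effect, of SMOX and of CHAC1 in the last pair of stages. It ended no other call named here. A crossed pairing, added after seeing the data, gave 621 and 2972. The largest adjusted p over the alternatives passed 0.01 also for PYCR3 (0.0116), SLC18B1 (0.062), DDIT3 (0.016 in both stages) and TRIB3 in primary cells (0.0137). TPM keep no depth, so what depth limits is unknown here.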

Other observations

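The 2 libraries labelled metastasizing at 3% oxygen differed from each other in several of the 10 genes at once. Library a held 355 TPM of ODC1, 309 TPM of AZIN1, 217 TPM of AMD1 and 268 TPM of ASS1, and library b held 85.1, 127, 119.9 and 119 TPM of the same genes in that order. SAT1 was the reverse, at 38.4 TPM in library a and 72.5 TPM in library b, and the decay-annotated transcript SAT1-208 was 33.6% of it in library a and 9.75% in library b. ATP13A3, the polyamine importer, was 171 TPM in library a and 84.6 TPM in library b, while SMS differed little (304 and 335 TPM). HRAS was 143 TPM in library a and 772 TPM in library b. These values rest on 1 library each and were not tested.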
